A study of Rattus norvegicus with 6 samples.

Results

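The genes followed here through the cell classes of the rat brain are 9 genes of purine signalling: the ADP receptors P2ry12 and P2ry13, the UDP receptor P2ry6, the ATP-gated channels P2rx4 and P2rx7, the ectonucleotidases Entpd1 (CD39) and Nt5e (CD73), and the adenosine receptors Adora2a and Adora3. They were chosen by name, and all 9 were among the 15227 genes of the deposited matrices. Single cells of the cerebral hemisphere had been sequenced from normal control rats (NC) and from rats with acute carbon monoxide poisoning (CO), with 3 libraries in each group and 3 rats per group stated. CO rats breathed the gas at 1000 ppm for 40 min and then at 3000 ppm for 20 min, and the model was accepted when consciousness was impaired and carboxyhemoglobin, the form of hemoglobin that carries CO, was above 60%. Strain, age, sex and the time from exposure to sampling were not given in the sources used here. Tissue was dissociated with trypsin at 37 °C, a step that both groups share.

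Purine signalling runs as a chain. Cells release ATP and other nucleotides on activity or damage, P2X channels and P2Y receptors on their neighbours sense them, CD39 and other ectonucleotidases strip them to AMP, CD73 turns AMP into adenosine, and adenosine acts on receptors of its own. In brain, microglia are known for the ADP receptor P2Y12, which steers their processes towards released nucleotides and is lost as the cells activate, for P2Y6, which is tied to uptake of debris, and for P2X7, which on high ATP opens the way to release of interleukin-1 beta.

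The libraries held between 39494470 and 47322264 unique molecular identifiers (UMIs, 1 per captured transcript). Filtering left 19019 NC cells, with library medians from 4699 to 4708 UMIs per cell, and 16622 CO cells, with library medians from 5486 to 5555.5. Averaged over genes, the libraries within a group hardly differed: the spread between library means over the spread expected of parts of 1 pool of cells averaged 0.994 in NC microglia and 1.02 in CO microglia, where 1 is the value for parts of a pool. Over all kept cells the ratio was 1.02 in NC and 1.11 in CO. Each group was therefore counted as 1 sample, and no p-value is given; differences carry 95% intervals that cover counting error only. The values of the 3 libraries stand beside each main result, but their closeness says nothing of the spread between rats. Classes were gated on marker genes, with none of the 9 genes among the markers, and all 15 microglial markers were detected in the microglial gate. It held 7251 NC cells and 8319 CO cells, which was 38.1% and 50.05% of the kept cells. Comparisons were made in 10 classes, each present with 30 or more cells per library. Levels are CPM, counts scaled to a common total of the class, scaled between groups by TMM factors, and each is comparable along a gene but not between genes.

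The promoters of P2ry13 (lower in CO), Entpd1 (higher) and P2rx7 (little different) are shown because their differences in microglia are unlike in direction or size. The RefSeq promoter table (GRCr8) matched 6 of the 9 genes by symbol, the other 3 matched being P2rx4, Nt5e and Adora3. Each is the 250 bases before the gene's start, 5′ to 3′ on the gene's strand, at chr2:145622785-145623034 (minus strand), chr1:249422614-249422863 (plus strand) and chr12:39594923-39595172 (minus strand) in turn. Capitals, which occur in P2rx7 alone of the 3, mark GAGGAA, a core of the kind that the myeloid factor PU.1 binds.
P2ry13: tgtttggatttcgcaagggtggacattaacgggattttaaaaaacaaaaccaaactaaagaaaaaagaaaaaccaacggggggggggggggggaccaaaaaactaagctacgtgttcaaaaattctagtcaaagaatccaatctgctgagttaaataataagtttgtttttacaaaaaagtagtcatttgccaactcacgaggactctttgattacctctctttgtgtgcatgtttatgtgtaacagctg
Entpd1: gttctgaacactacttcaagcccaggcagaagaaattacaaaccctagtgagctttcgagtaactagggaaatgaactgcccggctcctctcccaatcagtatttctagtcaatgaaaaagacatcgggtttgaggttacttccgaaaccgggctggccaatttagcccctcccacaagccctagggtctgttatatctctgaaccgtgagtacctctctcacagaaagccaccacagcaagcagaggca
P2rx7: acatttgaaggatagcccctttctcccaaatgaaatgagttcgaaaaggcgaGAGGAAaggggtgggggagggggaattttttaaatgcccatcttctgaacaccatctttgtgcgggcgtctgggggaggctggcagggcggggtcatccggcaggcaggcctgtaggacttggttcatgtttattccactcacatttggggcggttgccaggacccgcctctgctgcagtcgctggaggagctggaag
Searched on both strands, GAGGAA was in 3 of the 6 promoters (P2rx4, P2rx7 and Adora3, 1 match each) and in 23.3% of all 33469 promoters of that length. The NF-κB consensus was in 0 of the 6 and in 4.24% of all. A match is a string of letters and not a site, and no match says only that the letters are not in this window. The P2ry13 window had 37.6% G and C and the Entpd1 window 48.8%.

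**Figure D1:**
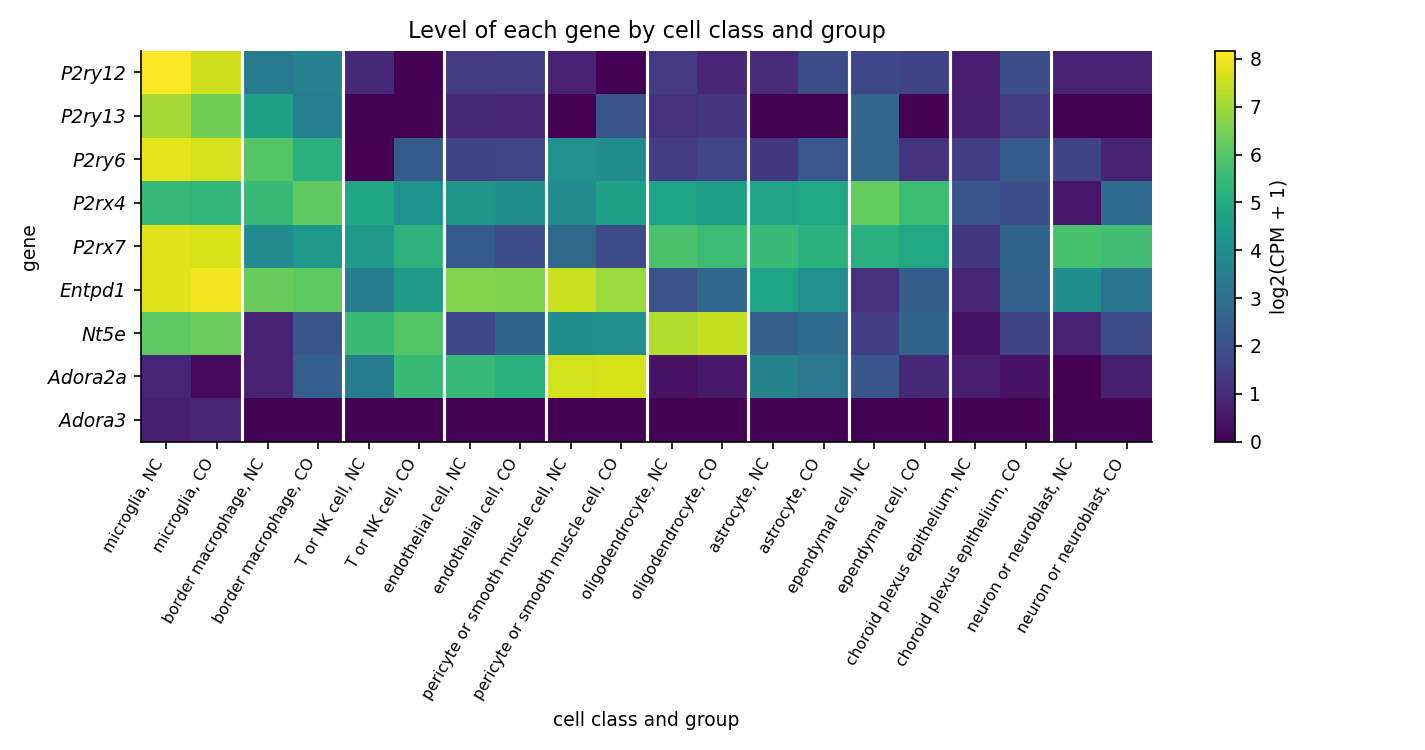
Level of each of the 9 genes, as log2(CPM + 1) of the summed counts, in the 10 compared cell classes of each group (1 column per class and group). Rows are to be read along, not against each other; P2ry12, P2ry13 and P2ry6 are brightest in microglia, Adora2a in pericytes or smooth muscle cells and Nt5e in oligodendrocytes.

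Microglia held nearly all transcripts of P2ry12, P2ry13 and P2ry6. Of all P2ry12 UMIs in kept cells, 97.2% in NC and 97.9% in CO lay in microglia, and the shares for P2ry13 were 96.2% and 97.2%. For P2ry6 they were 94.01% and 95.4%. All 62 UMIs of Adora3 came from microglia, 24 in NC and 38 in CO. The channel P2rx7 and the ectonucleotidase Entpd1 were mostly microglial, with 76.1% and 74.9% of NC UMIs, and shared the rest with oligodendrocytes (18.0% of P2rx7) and endothelial cells (15.4% of Entpd1). By contrast, microglia gave 47.3% of the NC UMIs of P2rx4 and 31.3% of those of Nt5e. Among the captured cells Adora2a lay mostly in vessel classes, with 54.2% of its NC UMIs in endothelial cells and 20.6% in pericytes or smooth muscle cells. Neurons or neuroblasts, with 434 NC and 1253 CO cells, gave 0 and 5 of its UMIs. Shares of UMIs move with the number of cells of each class captured.

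In CO microglia the pair of ADP receptors was lower by log2 ratios of -0.60 and -0.68, P2ry6 was slightly lower, Entpd1 was slightly higher, and the other well-counted genes differed little. Of the 9 genes, 3 were at least 1.5-fold lower in CO (P2ry12, P2ry13 and Adora2a) and 0 were at least 1.5-fold higher. Without NC replicate 3, and likewise with thinned cells, 1 was at least 1.5-fold lower, P2ry13, since P2ry12 fell short of 1.5-fold and Adora2a had under 30 counts. Of all 11930 genes with at least 30 counts in microglia, 10.0% were at least 1.5-fold lower and 8.42% at least 1.5-fold higher. Low counts widen that spread: among the 6998 genes with at least 1000 counts, 2.84% were at least 1.5-fold lower and 2.8% higher. Of the 9 genes, 7 had such counts, and 2 of these 7, P2ry12 and P2ry13, were past 1.5-fold. Every CO library lay below every NC library for 5 of the 9 genes, beside 23.5% of all genes, and above for 1, beside 23.2%. These shares are over all 11930 genes and were not matched on counts.

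P2ry12 encodes the ADP receptor that marks resting microglia. Its level was 281, 283 and 296 CPM in the 3 NC libraries and 191, 186 and 190.4 CPM in the 3 CO libraries. The groups did not overlap, and the highest CO library stood far under the lowest NC library. From 10740 counts in NC and 8860 in CO the level went from 287 to 189 CPM, a log2 ratio of -0.60 (interval -0.64 to -0.56). The fold of 1.52 lay just past 1.5: without NC replicate 3 the log2 ratio was -0.57 and without CO replicate 2 it was -0.58, both short of 1.5-fold, and with cells thinned to 2000 UMIs it was -0.54. Among the genes with at least 1000 counts, 2.69% had a lower ratio than P2ry12.

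P2ry13 encodes a second receptor for ADP, of the same Gi-coupled type. Its level was 134, 133 and 134 CPM in the NC libraries and 82.1, 82.1 and 85.6 CPM in the CO libraries. Again the groups stood well apart, with a narrow spread within each. From 5004 and 3900 counts the log2 ratio was -0.68 (interval -0.74 to -0.62), and 1.9% of the genes with at least 1000 counts had a lower one. In RefSeq's annotation (GRCr8) both ADP receptor genes lie inside the span of Med12l, and the table gives P2ry13 on the minus strand and Med12l on the plus strand. Med12l, a Mediator subunit gene, was counted in microglia at 372 CPM in NC and 418 CPM in CO, a log2 ratio of 0.17 (interval 0.14 to 0.20), so it was higher where both of the genes inside it were lower. How the authors' counting assigned reads of overlapping genes was not given in the sources used here.

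A smaller share of CO microglia had a transcript of either ADP receptor. With every cell thinned to 2000 UMIs, which left 6330 NC and 7157 CO microglia and left out 921 and 1162, a UMI of P2ry12 was found in 38.4% of NC microglia (exact interval 37.2 to 39.6) and 27.8% of CO microglia (26.8 to 28.9). Without thinning the shares were 56.8% and 46.5%. In thinned oligodendrocytes the shares were 0.301% and 0.245%, at unthinned medians of 8740 and 9433 UMIs. For P2ry13 the thinned shares were 21.6% in NC and 13.3% in CO microglia. Cells with 5 or more UMIs of P2ry12 made up 7.35% of NC and 4.33% of CO microglia, although CO microglia had the higher median depth (5712 UMIs against 4982).

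The lower level of the ADP receptors was not limited to 1 kind of microglia. Leiden clustering, a split by overall likeness of expression, put most of the gate into 5 clusters, and in all 5 every CO library lay below every NC library for both genes. For P2ry12 the log2 ratio ran from -0.86 to -0.53 over the clusters, and for P2ry13 from -1.10 to -0.53. Levels themselves differed between clusters. NC P2ry12 was highest in cluster 1 (411 CPM), which was led by Leng8, Trpv3 and Nhlrc3, and lowest in cluster 3 (173 CPM), which was led by the cytokine genes Cxcl10 and Il1b. In cluster 3 the CO level was 113 CPM. Cluster 9, at a median of 1021 UMIs per cell, was led by hemoglobin genes and Ttr, and gave the ratio of -0.86. The clusters were made from the same cells with the 9 genes left out. Split by depth into 4 ranges of UMIs per cell, the CO libraries again lay below in all 4 for both genes, with log2 ratios of P2ry12 from -1.01 in the shallowest range to -0.43 in the deepest.

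**Figure D2:**
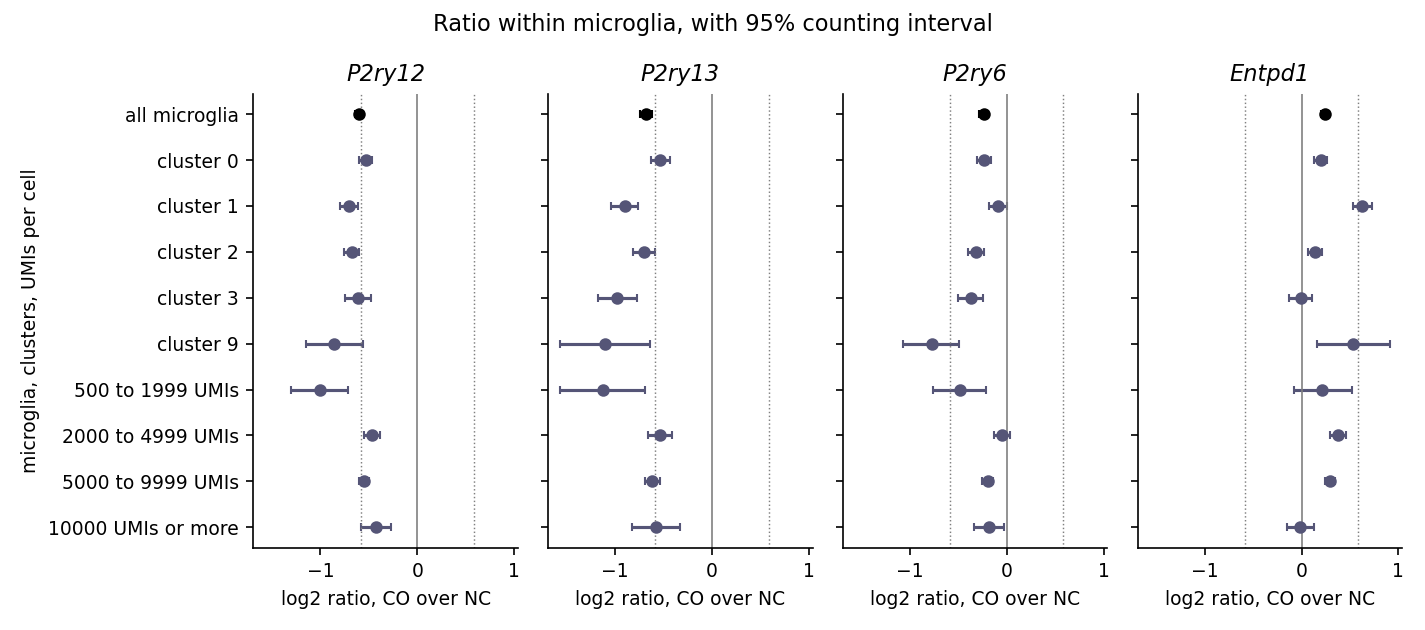
Log2 ratio of CO over NC (x axis) with its 95% counting interval for 4 genes, in all microglia (black), in 5 clusters and in 4 ranges of UMIs per cell (y axis); dotted lines mark 1.5-fold. P2ry12 and P2ry13 lie left of 0 in every row, whereas Entpd1 lies between -0.01 and 0.63.

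P2ry6, the UDP receptor, was 223, 239 and 234 CPM in the NC libraries and 192, 201 and 198 CPM in the CO libraries. The groups did not overlap but the gap was small, with a log2 ratio of -0.24 (interval -0.28 to -0.20). It was lower without overlap in 4 of the 5 clusters and in 2 of the 4 depth ranges, where its ratio ran from -0.48 to -0.05. With thinning, 32.9% of NC and 28.3% of CO microglia had a UMI.

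Over all kept cells, P2ry6 pointed the other way, at 77.4 CPM in NC and 86.1 CPM in CO, a log2 ratio of 0.15 (interval 0.11 to 0.19). P2ry12 over all kept cells was 92.4 and 80.7 CPM, a log2 ratio of -0.20, which is closer to 0 than within microglia. Microglia made up a larger share of the CO cells (50.05% against 38.1%), and values over all cells carry that share along with the level per cell. Whether the share reflects the tissue or the capture of cells was not tested.

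Over all microglia the ATP-gated channels differed little. P2rx7, the channel with the lowest affinity for ATP, was 219, 221 and 217 CPM in NC and 203, 213 and 201 CPM in CO, which leaves every CO library slightly below every NC library. Its log2 ratio was -0.09 (interval -0.14 to -0.05) and moved to -0.02 with thinned cells. By depth it pointed both ways, with log2 ratios of -0.76 in the shallowest range, with every CO library below, and 0.13 in the next, with every CO library above. By cluster it ran from -0.77 to -0.07, with every CO library below in 3 of the 5 clusters and above in 0. P2rx4, known in rat as a channel that microglia raise after nerve injury, was 43.0, 44.9 and 41.4 CPM in NC and 39.1, 45.0 and 37.8 CPM in CO. These overlap, and the log2 ratio of -0.09 had an interval from -0.18 to 0.01. By cluster it ran from -0.48 to 0.09, with every CO library below in 2 of the 5 clusters.

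Of the pair of ectonucleotidases followed here, Entpd1 was slightly higher in CO microglia and Nt5e overlapped between the groups. Entpd1 (CD39), which takes ATP and ADP to AMP, was 212, 213 and 228 CPM in NC and 265, 258 and 253 CPM in CO. All 3 CO libraries were above all 3 NC libraries, at a log2 ratio of 0.25 (interval 0.20 to 0.29). Of the genes with at least 1000 counts, 84.8% had a lower ratio. The thinned share of microglia with a UMI was 28.4% in NC and 32.3% in CO. The difference was uneven: the log2 ratio was 0.63 in cluster 1 (232 CPM in NC, 359 CPM in CO) and -0.01 in cluster 3, and 0.38 in the second shallowest range but -0.01 in the deepest. Entpd1 was higher without overlap in 3 of the 5 clusters, while the ADP receptor genes were lower in all 5.

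Nt5e (CD73), which makes adenosine from AMP, was 81.0, 61.8 and 67.2 CPM in NC microglia and 78.9, 86.9 and 69.2 CPM in CO microglia. The groups overlap, and the log2 ratio of 0.16 (interval 0.09 to 0.23) depended on the libraries: without NC replicate 2 it was 0.08 and without NC replicate 1 it was 0.27. It was 0.04 with thinned cells. By cluster it ran from -0.13 to 0.82 and overlapped in 4 of 5, and by depth it ran from -0.42 to 0.66 and overlapped in all 4 ranges. The exception was cytokine-led cluster 3, where the level was 41.7 CPM in NC and 73.6 CPM in CO, a log2 ratio of 0.82 (interval 0.60 to 1.04) with every CO library above. Nt5e transcripts were gathered in few microglia. In NC, 13.5% of cells had a UMI, where an even spread at the cells' own depths would give 29.2%, and positive cells held 2.66 UMIs on average. For P2ry12 the same 2 shares were 56.8% and 71.1%. Among the 10 compared classes Nt5e was highest in oligodendrocytes, and oligodendrocyte markers were also counted in the microglial gate. Their summed level there was 1.38% of that in NC oligodendrocytes and 1.81% in CO, and Nt5e stood at 46.7% and 46.1% of its oligodendrocyte level. The part of oligodendrocyte transcripts in microglial Nt5e was not tested.

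Both adenosine receptors were near the floor in microglia. Adora2a, the Gs-coupled receptor that raises cyclic AMP, gave 30 counts in 7251 NC cells and 7 in 8319 CO cells. These came to 0.83, 0.41 and 1.13 CPM in the NC libraries and 0.19, 0.14 and 0.12 CPM in the CO libraries, a log2 ratio of -2.42 with a wide interval of -3.85 to -1.21. With doublets kept the log2 ratio was -0.63, and with a gate on the remaining markers alone it was -0.68, so the size rests on a few cells. Adora3, which is Gi-coupled and in mouse microglia known from process movement, gave 24 and 38 counts, with a log2 ratio of 0.34 (interval -0.43 to 1.14) and overlapping libraries. It lies inside the span of Tmigd3 in the annotation, and Tmigd3 was counted at 179 in NC and 183 in CO.

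**Figure D3:**
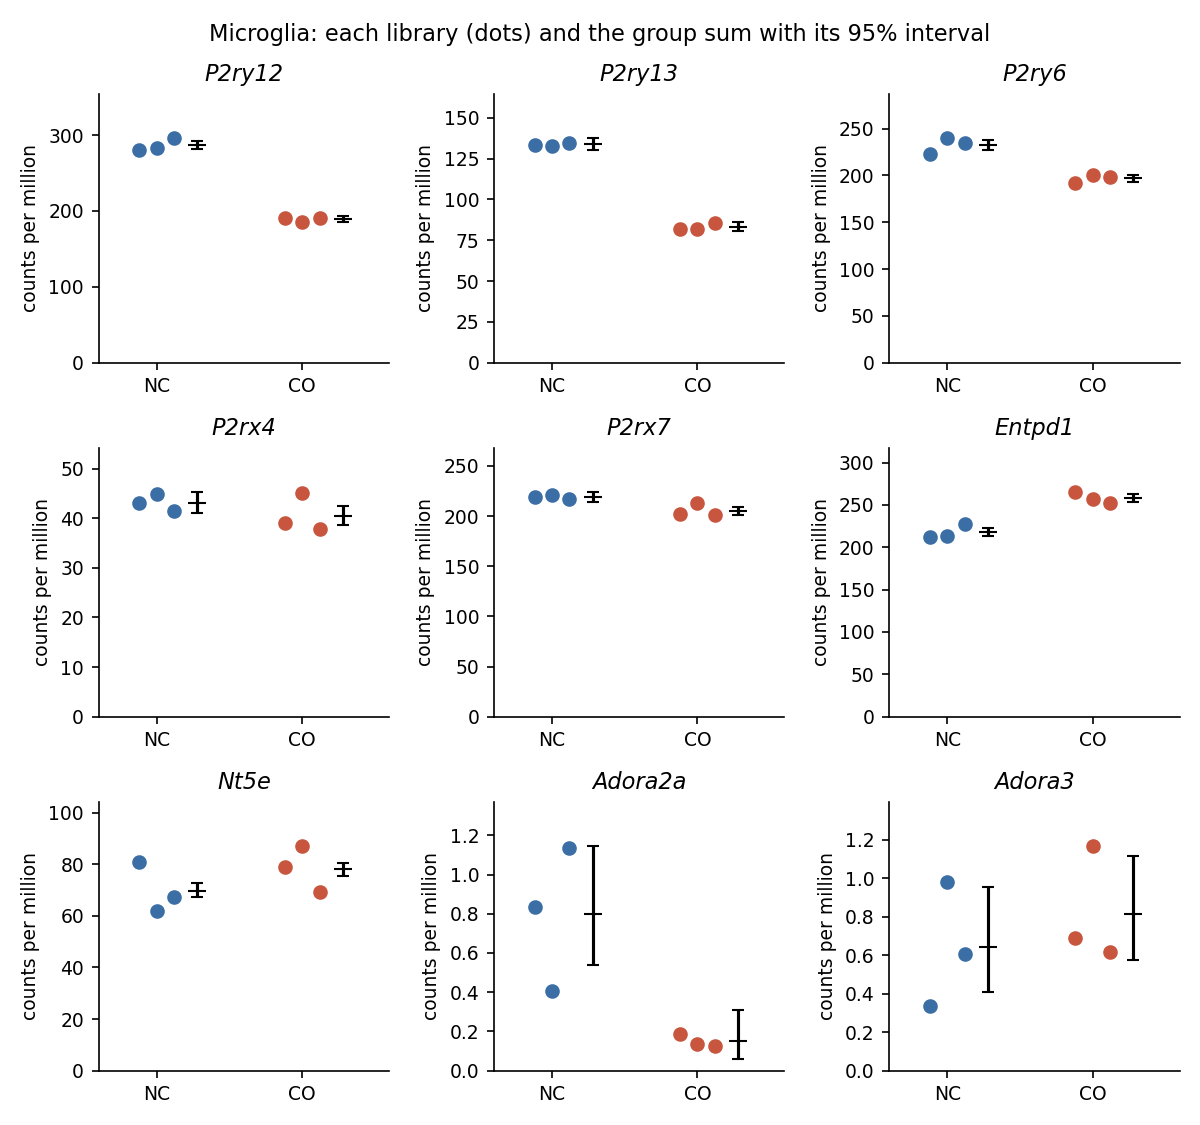
Level of each gene in microglia in CPM (y axis), with 1 dot per library (3 NC in blue, 3 CO in red) and a black bar for the group's summed counts with its 95% Poisson interval. P2ry12 and P2ry13 separate widest for their spread, P2rx4, Nt5e and Adora3 overlap, and the 2 adenosine receptors stay near 1 CPM or under.

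Other signals moved with the groups inside the microglial gate. The summed level of 12 oligodendrocyte markers was 1126 CPM in NC and 1446 CPM in CO, although 8 of the 11 with enough counts were lower in CO and 3 were higher. That of 12 astrocyte markers was 351 CPM (libraries 340.2 to 362) in NC and 488 CPM (469 to 500.2) in CO, with 8 of 10 compared higher. That of 8 choroid plexus markers was 1078 CPM (1059 to 1088) in NC and 478 CPM (462 to 489) in CO, with 7 of 8 lower. The neutrophil markers, of which 3 of 10 had enough counts, varied widely between CO libraries, from 3.33 to 37.8 CPM, against 1.55 to 2.42 CPM in NC. Markers of proliferation were at 20.3 CPM in NC and 51.4 CPM in CO. P2ry12 was 1.58 CPM in NC and 0.82 CPM in CO oligodendrocytes, and 1.02 and 2.93 CPM in astrocytes. In choroid plexus it was 0.55 CPM in NC and 2.94 CPM in CO. The part of these other signals in the microglial ratios above, or in those of other genes below, was not tested.

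Among the 10 compared classes, border macrophages, which line vessels and meninges, came next after microglia for P2ry12, P2ry13 and P2ry6. The steps were of unlike size: microglia stood 22.9-fold, 6.2-fold and 4.39-fold higher than border macrophages. P2ry12 gave 13 counts in each group there, at 9.35 CPM in NC and 11.4 CPM in CO, too few to compare. The gate held 356 NC and 241 CO cells, with 108 and 78 cells in the smallest library of each group, so counts were small. P2ry13 was 24.5 CPM in NC and 10.5 CPM in CO, a log2 ratio of -1.21 (interval -2.30 to -0.23), and P2ry6 was 62.6 and 35.2 CPM, a log2 ratio of -0.83 (interval -1.41 to -0.28). P2rx4 was 45.3 and 71.2 CPM, a log2 ratio of 0.65 (interval 0.16 to 1.15). For all 3 the libraries of the groups overlapped. Of the 5 genes with at least 30 counts, 3 were past 1.5-fold, beside 36.8% of all genes in this class. Microglial markers summed to 10007 CPM in NC and 13233 CPM in CO in this gate, against 24038 and 26459 CPM in microglia, and their part was not tested.

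Adora2a was highest, among the 10 compared classes, in those of the vessel wall. Its level in pericytes or smooth muscle cells, the contractile cells on which adenosine acts to widen vessels, was 191, 204 and 189 CPM in NC and 201, 227 and 185 CPM in CO. The groups overlap, at a log2 ratio of 0.08 (interval -0.16 to 0.32). Endothelial cells were next, with 40.9, 40.2 and 48.0 CPM in NC and 37.2, 36.7 and 33.2 CPM in CO, a log2 ratio of -0.27 (interval -0.43 to -0.11) with every CO library below. Their ranges did not touch those of pericytes. Pericyte or smooth muscle markers summed to 1097 CPM in NC and 1335 CPM in CO in the endothelial gate. In their own gate they summed to 23545 and 28364 CPM, and their part in endothelial Adora2a was not tested. Within endothelial cells the gene was gathered in cluster 4, at 131 CPM in NC and 113 CPM in CO on the cluster's own total. The bulk of the class lay in different clusters in each group, cluster 5 with 79.4% of NC and cluster 10 with 79.3% of CO endothelial cells, where the levels were 32.9 and 14.6 CPM.

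Entpd1 was high in the same vessel classes. In pericytes or smooth muscle cells it was 211, 195 and 148 CPM in NC and 116, 87.5 and 169 CPM in CO. These libraries overlap, although the log2 ratio of the sums was -0.59 (interval -0.87 to -0.31), just past 1.5-fold; 30.8% of genes in this class were past it. In endothelial cells it was level, at 96.8 CPM in NC and 95.2 CPM in CO, a log2 ratio of -0.02 (interval -0.13 to 0.08). CD39 on endothelium is known to keep platelets quiet by removing ADP. Nt5e was scarce there, with 42 NC and 83 CO counts and a log2 ratio of 1.10 (interval 0.54 to 1.67), in a class where 26.9% of genes were past 1.5-fold. Within the class it was not higher in cluster 4, which held 23 of the NC counts (9.92 CPM in NC, 7.4 CPM in CO), and the main clusters of each group stood at 1.26 CPM (cluster 5, NC) and 1.67 CPM (cluster 10, CO).

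Of Nt5e UMIs, oligodendrocytes gave 62.1% in NC and 36.8% in CO, and microglia 31.3% and 54.5%. Oligodendrocytes had the highest level of Nt5e among the 10 compared classes. The level was 158, 141 and 149 CPM in NC and 188, 159 and 159 CPM in CO, a log2 ratio of 0.18 (interval 0.11 to 0.25), and every CO library lay above every NC library by a small step. Thinned, 21.9% of NC and 25.5% of CO oligodendrocytes had a UMI, against 8.63% and 8.87% of microglia. P2rx7 in oligodendrocytes was 57.1, 54.2 and 55.9 CPM in NC and 48.0, 49.3 and 44.3 CPM in CO, a log2 ratio of -0.24 (interval -0.37 to -0.11) with no overlap. P2rx4 was 25.7 and 23.2 CPM with overlapping libraries. Entpd1 rested on 108 and 85 counts, at 3.11 and 5.83 CPM, a log2 ratio of 0.91 (interval 0.48 to 1.33) with overlapping libraries; 17.7% of genes were past 1.5-fold in this class.

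Neurons or neuroblasts carried P2rx7 at 55.3, 49.95 and 55.2 CPM in NC and 49.7, 50.9 and 48.9 CPM in CO. Its log2 ratio was -0.11 (interval -0.39 to 0.17) and the groups overlap. Entpd1 was lower, at 18.1, 13.5 and 15.8 CPM in NC and 11.4, 5.09 and 7.66 CPM in CO, a log2 ratio of -0.99 (interval -1.56 to -0.40), from 43 and 67 counts. P2rx4 gave 1 count in 434 NC cells and 52 in 1253 CO cells, a log2 ratio of 4.08 whose interval of 1.53 to 9.41 reflects the single NC count. Of all genes compared in this class 22.3% were past 1.5-fold.

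The order of the classes differed from gene to gene. For P2ry12, P2ry13, P2ry6, P2rx7 and Entpd1 microglia came first, and their libraries did not overlap with those of the next class. The step was 22.9-fold for P2ry12 and 6.2-fold for P2ry13, both over border macrophages, but 1.57-fold for Entpd1, over pericytes or smooth muscle cells. For Entpd1 the lowest microglial library stood at 212.1 CPM and the highest of pericytes or smooth muscle cells at 211.3 CPM. From border macrophages on, each class overlapped the next for P2ry12. P2rx7 came next in neurons or neuroblasts (51.8 CPM as the mean of both groups), oligodendrocytes (51.5 CPM), astrocytes (40.9 CPM) and ependymal cells (31.7 CPM), and each of these neighbours overlapped the one before it. P2rx4 was spread most evenly, from 61.7 CPM in ependymal cells and 58.3 CPM in border macrophages through 41.8 CPM in microglia to 17.3 CPM in endothelial cells, with all neighbours overlapping down to that point. Nt5e went from oligodendrocytes (159 CPM) through microglia (73.9 CPM) and T or NK cells (53.5 CPM) to pericytes or smooth muscle cells (15.5 CPM).

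**Figure D4:**
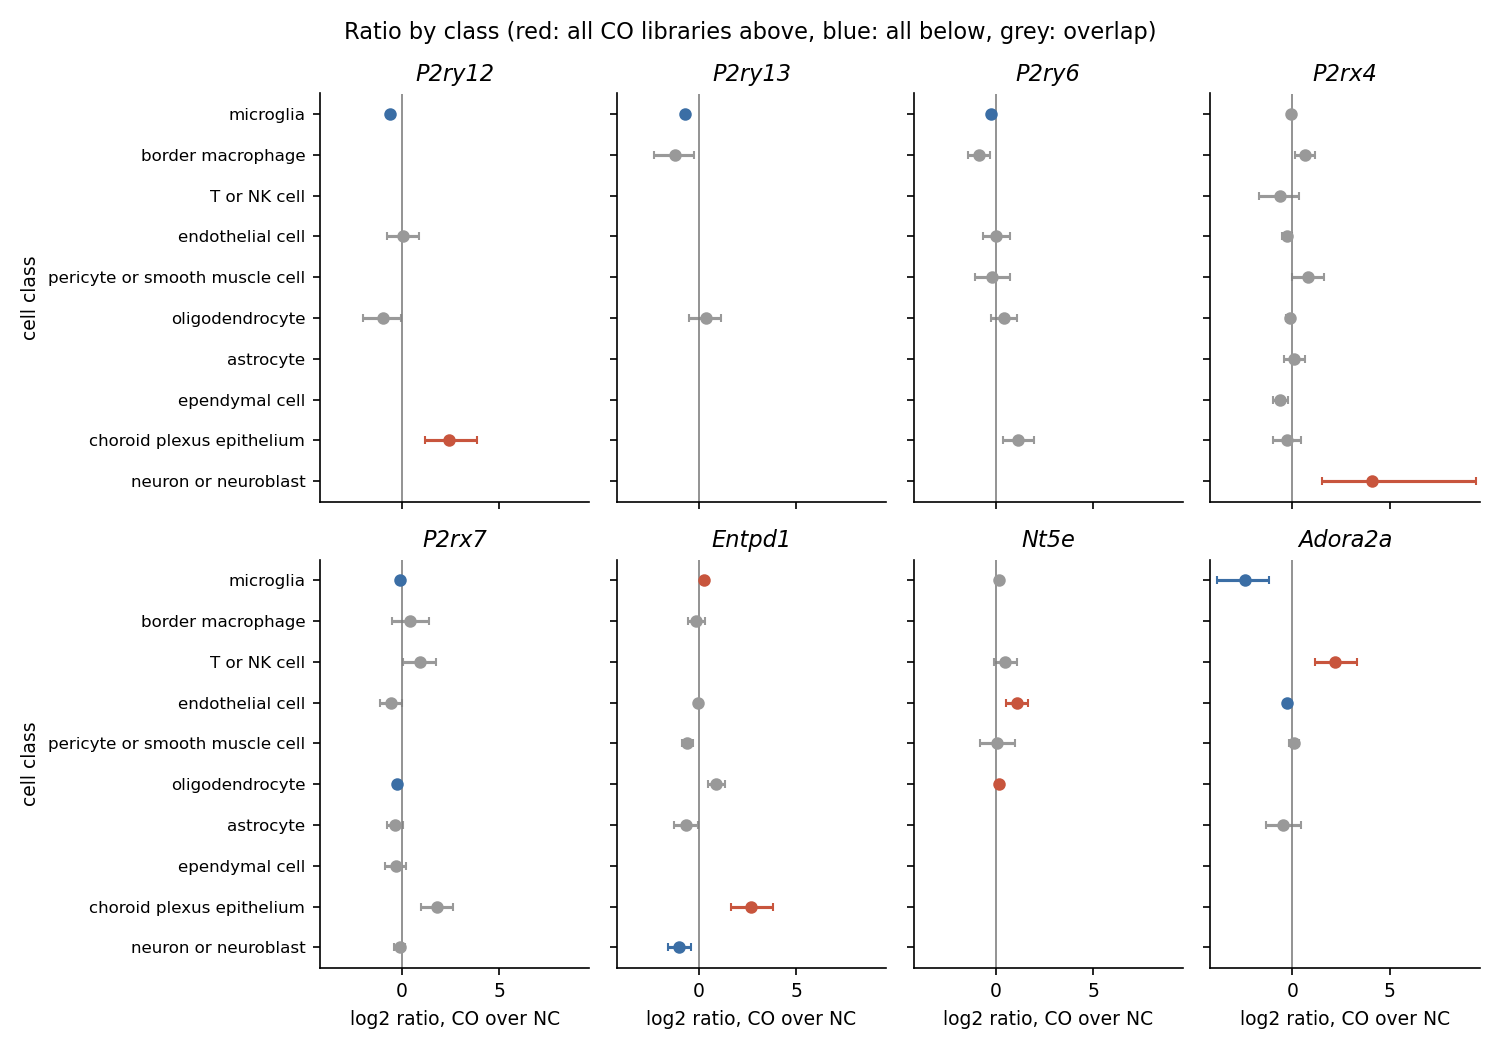
Log2 ratio of CO over NC (x axis) with its 95% counting interval in each cell class (y axis) where the gene had at least 30 counts, for 8 genes; red marks every CO library above every NC library, blue every CO library below, grey overlap. The blue points in microglia are P2ry12, P2ry13, P2ry6, P2rx7 and Adora2a, and Entpd1 is red there.

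The remaining classes gave small counts. Ependymal P2rx4 was 74.8 CPM in NC and 48.5 CPM in CO, a log2 ratio of -0.62 (interval -1.01 to -0.24) with overlapping libraries, where 32.8% of genes were past 1.5-fold. Astrocytes had P2rx7 at 45.9 and 35.9 CPM, a log2 ratio of -0.35 (interval -0.78 to 0.08), and Entpd1 at 25.5 and 16.5 CPM; 30.7% of genes were past 1.5-fold, and cluster 13 held 70.1% of NC but 45.3% of CO astrocytes. T or NK cells had Adora2a, which in T cells is known to restrain activation, at 16.4, 2.52 and 13.002 CPM in NC and 42.2, 65.0 and 33.9 CPM in CO. That log2 ratio of 2.18 (interval 1.17 to 3.30) came from 11 and 35 counts, 24 of the latter in cluster 24, which held 12.97% of NC and 35.3% of CO cells of the class. Proliferation markers in the class summed to 18.4 CPM in NC and 474 CPM (77.3 to 840.5) in CO, and their part was not tested. In this class 42.2% of genes were past 1.5-fold. Choroid plexus epithelium had P2ry12 at 0.55 and 2.94 CPM and Entpd1 at 0.78 and 4.93 CPM, where 28.9% of genes were past 1.5-fold and low-depth cluster 28 held 10.2% of NC and 57.7% of CO cells. Of the classes too small to compare, neutrophils (6 NC and 55 CO cells) had Entpd1 at 452 and 549 CPM, and fibroblasts had Nt5e at 155 and 178 CPM. Monocytes or dendritic cells, also too few, had P2ry6 at 62.1 and 52.5 CPM from 35 and 27 counts.

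The genes whose levels over the 20 class and group means were most like a member's were taken by Pearson correlation of log2(CPM + 1), as a description of points that share libraries and depth. For P2ry12 they were Siglec5 (r = 0.94), Tlr9 (0.94) and Cd180 (0.94). For P2ry13 they were Cd33 (0.96), Ccl9 (0.95) and Ifnb1 (0.93), and for P2ry6 Tmem176a (0.95), Cd33 (0.95) and Tmem176b (0.93). For Entpd1 they were Tor4a (0.93), Mef2a (0.90) and Shc1 (0.89), for P2rx7 Hspbap1 (0.86), Depdc5 (0.85) and Dip2b (0.85), and for P2rx4 Necap2 (0.83), Tyk2 (0.81) and Ube2f (0.80). Nt5e was nearest to Evi2a (0.85), Mta3 (0.84) and Nrbf2 (0.82), and Adora2a to Gmds (0.95), Utrn (0.94) and Rasgrp2 (0.91). Adora3, with 62 counts in all, had too few for this.

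The rest of the pathway in microglia was described from lists of other genes. Among 3 other P2Y receptors with enough counts, 1 was higher and 2 lower. P2ry10 was past 1.5-fold at 1.36 CPM in NC and 0.235 CPM in CO, a log2 ratio of -2.53 (interval -3.62 to -1.58). P2ry2 had -0.42 with overlap, and P2ry14, the receptor for UDP-glucose, 0.18. Of the 5 other P2X receptors in the files 2 had enough counts: P2rx1, at 7.72 and 5.13 CPM, had a log2 ratio of -0.59 (interval -0.84 to -0.34), and P2rx3 0.52. Of the other adenosine receptors, Adora2b, a low-affinity Gs-coupled receptor, rested on 35 and 77 counts with a log2 ratio of 0.82 (interval 0.22 to 1.44), and Adora1 on 464 and 528 with -0.14.

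Of the other ectonucleotidases 11 were measured, 5 higher and 6 lower, with a median log2 ratio of -0.01 beside 0.00 over all 11930 genes. Acpp, an acid phosphatase that can also make adenosine from AMP, was past 1.5-fold higher at 3.47 and 9.29 CPM, a log2 ratio of 1.42 (interval 1.13 to 1.71). Cd38, which consumes NAD, was past 1.5-fold lower at -0.63 from 31 and 25 counts, with an interval that reached 0.18. Entpd2 had 0.56 from 13 and 24 counts with overlap, and Enpp2 had -0.48 without overlap. Among 12 genes of adenosine uptake and metabolism, 5 were higher and 7 lower (median -0.09). Slc29a3, an equilibrative nucleoside transporter of lysosomes, was 228 CPM in NC and 147 CPM in CO, a log2 ratio of -0.64 (interval -0.68 to -0.59), beside -0.60 and -0.68 for the ADP receptors. Ada had -0.53 with overlap and Slc28a2 0.45. Adenosine kinase (Adk) was higher without overlap at 0.38 and the plasma membrane transporter Slc29a1 at 0.30.

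The 7 measured genes of ATP release gave 3 higher and 4 lower (median -0.02). Gjb6 was past 1.5-fold at 0.83 but from 22 and 49 counts with overlap, Calhm2 had -0.42 without overlap, and Gja1 0.31. Gjb6 and Gja1, connexin genes, are also 2 of the astrocyte markers, whose sum was higher in the CO microglial gate, and the part of that was not tested. Of 22 genes of signalling behind the receptors, 17 were higher and 5 lower (median 0.14, beside 0.00 over all genes), none past 1.5-fold. Every CO library lay above every NC library for 11 of them and below for 1, beside 23.2% and 23.5% of all genes. These shares were not matched on counts. The largest ratios were those of Itpr2, an inositol trisphosphate receptor (0.35), Gnas (0.32) and Il18 (0.27). Kcnk13, the potassium channel THIK-1 through which P2Y12 is known to act in mouse microglia, had -0.13 (interval -0.17 to -0.09) without overlap.

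Among 17 further genes known from resting microglia, 7 were higher and 10 lower (median -0.10). Every CO library lay below every NC library for 9 of them and above for 6, beside 23.5% and 23.2% of all genes. Here too the shares were not matched on counts. Bin1 was past 1.5-fold lower, at 219 and 141 CPM (log2 ratio -0.64), and Mertk had -0.47 without overlap. Lag3 (0.95, interval 0.56 to 1.35) and Sparc (0.79, interval 0.78 to 0.81) were past 1.5-fold higher. The lower level of P2ry12 and P2ry13 stood beside resting-state genes in both directions.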

How the data were processed

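Droplet libraries (10x Genomics), 6 in all, were used, 3 labelled as control and 3 as carbon monoxide poisoning. Raw counts of UMIs were deposited for each barcode, made by the authors with Cell Ranger on the rat genome Rnor_6.0 per the submitters' processing notes; its version, the gene annotation and any barcode filter are not given in the sources used here. Across tables, the number of other columns with per-sample values was 0.

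Of 42293 barcodes, the 38027 reaching 500 UMIs and 200 genes stayed in. Scrublet (scanpy 1.11.5) set its own doublet threshold so high in the 3 CO libraries that it marked 2, 1 and 2 barcodes, so the highest 6% of scores were removed in every library (2386 barcodes). Over 15 pairs of libraries, 1 barcode was shared. Each cell took the class with the highest mean log-normalized marker level, if at least 3 markers were detected and the level was at least 1.2 times the next; 9.26% of cells took none. Classes thus carry names from markers, and another gate could move cells between them. The scoring rule was set after the data were seen. Erythroid cells were left out of comparisons for their low depth. Counts were summed per class and group, scaled with TMM factors (edgeR 4.0.16, DESeq2 1.42.0 for alternatives), and a gene was compared from 30 summed counts on. Ratio intervals are exact binomial, level intervals exact Poisson, shares Clopper-Pearson (scipy 1.17.1), all at 95%; a count of 0 allows up to 3 counts. Intervals cover counting error only. No p-value is given because the libraries of a group looked like parts of 1 pool. Same-numbered libraries were not paired: their deviations correlated at 0.0187, 0.0132 and 0.0237. The ratio script was tested on simulated data.

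The members, markers and lists were chosen with earlier results of these data known. Named genes were all 9 members, each list's genes past 1.5-fold and its 3 largest ratios, and the 3 genes most alike to each member; other listed genes that are named were chosen after their values were seen. Alternatives were another scaling, no filter, other gates, Leiden clusters (2000 variable genes, 30 components, 15 neighbours, members left out), doublets kept, deeper or thinned cells, each library left out, and libraries as replicates. The split by cluster and depth and the gate on the remaining markers were added after seeing the data.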

Additional observations from a re-analysis of the deposited data

Results flagged for a closer look

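Adora2a, Entpd1 and P2ry12 pointed in opposite directions in different cell classes, with no overlap between the libraries of the groups on either side. The difference between classes was not tested, and the values are differences of log2 ratios.

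Adora2a in T or NK cells (log2 ratio 2.18) differed by 4.60 from microglia (-2.42) and by 2.45 from endothelial cells (-0.27). The T or NK value rests on 11 NC and 35 CO counts. In its cluster 23 the gene had 11 counts in 161 NC cells and 11 in 75 CO cells, and in cluster 24 it had 0 in 24 NC cells and 24 in 41 CO cells; cluster 24 held 12.97% of NC and 35.3% of CO T or NK cells. Summed endothelial markers in this class were 145 CPM in NC and 200 CPM in CO, and pericyte markers 20.2 and 0 CPM. Proliferation markers summed to 18.4 CPM in NC (libraries 10.4 to 26.2) and 474 CPM in CO (77.3 to 840.5), with 4 of 4 compared genes higher. The part of these was not tested.

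Entpd1 in microglia (0.25) differed by 1.23 from neurons or neuroblasts (-0.99), and choroid plexus epithelium (2.66) differed by 3.64 from neurons or neuroblasts. In neurons or neuroblasts the gene lay in cluster 22, with 43 counts in 331 NC cells and 60 in 1000 CO cells.

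P2ry12 in choroid plexus epithelium (2.42, from 7 and 28 counts) differed by 3.02 from microglia (-0.60). The choroid plexus values came from different clusters in the 2 groups. In cluster 28, with median depths of 1400 UMIs in 37 NC cells and 1701.5 in 240 CO cells, P2ry12 had 0 and 23 counts and Entpd1 0 and 35. In cluster 20, at medians of 43651 and 53148 UMIs, P2ry12 had 6 counts in NC and 5 in CO, or 0.490 and 0.549 CPM of that cluster, and Entpd1 had 5 and 12. Microglial markers in the class summed to 244 CPM in NC and 420 CPM in CO, and their part in these values was not tested.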

How the results depend on the processing

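Under all 19 alternatives P2ry12, P2ry13, P2ry6 and P2rx7 kept a negative log2 ratio in microglia and Entpd1, Nt5e and Adora3 a positive one; Adora2a kept a negative one under 18, and thinned cells gave it no ratio. Over 19 alternatives the ratio ran from -0.66 to -0.54 for P2ry12 and from -0.74 to -0.66 for P2ry13. P2rx4 ran from -0.16 to 0.00 and was above 0 in 1. With total counts in place of TMM factors P2ry12 was -0.66 and P2ry13 -0.74, a shift that the scaling gives to every gene, and with thinned cells P2ry12 was -0.54. Leaving out each library in turn gave P2ry12 from -0.62 to -0.57 and P2ry13 from -0.71 to -0.66. The number of genes at least 1.5-fold lower was 1 with thinned cells and 1 to 3 over the libraries left out, lowest without NC replicate 3, and 2 or 3 otherwise; that of genes at least 1.5-fold higher was 0 or 1, the 1 being Adora3 without NC replicate 2.

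With the libraries taken as replicates and the number as a replicate block, edgeR gave -0.60 for P2ry12 and -0.68 for P2ry13, the same as without the block. At an adjusted p-value under 0.05 it called 2047 genes higher and 2049 lower, beside 2064 and 2096 without the block. DESeq2 called 1747 higher and 1639 lower. The libraries looked like parts of 1 pool, so these calls do not measure the spread between rats. The replicate numbers do not pair the libraries, so the block is given for completeness.

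Outside microglia 5 values changed sign. With the stricter gate the T or NK log2 ratio was 0.16 for P2rx4 and -0.23 for P2rx7, and leaving out each library in turn moved P2rx7 there from -0.16 (without CO replicate 3) to 1.34. It moved P2ry12 in oligodendrocytes from -1.95 to 0.12 (without NC replicate 1) and Entpd1 in astrocytes from -1.22 to 0.084 (without NC replicate 3). The cause was not tested. The counts of a gene in a class limit each ratio, as the width of its interval shows.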
